A study of Mus musculus with 4 samples.

Results

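The cornified envelope is the cross-linked protein shell that a keratinocyte builds under its membrane as it dies, and the desmosome is the junction that ties the keratin filaments of neighbouring epithelial cells together. The genes described here encode the building blocks of the shell, the enzymes that join them, proteins of the outer living layers of epidermis, and the cadherins and plaque proteins of the desmosome. They were taken by symbol: every gene of the Sprr, Lce, Dsc, Dsg and Tgm families with a probe set annotated to 1 symbol, and 17 further genes given by name, of which 16 were found (Sbsn was not among the one-symbol probe sets). This gave 43 genes of 12393. Each was read from its brightest probe set.

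Involucrin, envoplakin and periplakin form a first scaffold of the shell, transglutaminases bond small proline-rich proteins, loricrin and late cornified envelope proteins to it, and filaggrin packs the keratins inside. In a desmosome, desmogleins and desmocollins meet across the gap between cells, and plakoglobin, plakophilins and desmoplakin carry the pull to the keratin filaments. Mammary luminal and basal cells have desmosomes but do not normally cornify, and keratinizing cells appear in mammary tissue in squamous metaplasia and in tumours with squamous differentiation.

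The samples were labelled mammary tumours of nulliparous female mice on the FVB strain, each array carrying RNA pooled in equal amounts from 5 animals, with 1 Affymetrix array for each of 4 groups. All mice of the 4 groups received 15 mg of the progestin MP (Depo-Provera) and then 4 weekly oral doses of 1 mg of the carcinogen DMBA, so the placebo groups are exposed to progestin and carcinogen too. The mice were either wild type (WT) or their age-matched littermates with MMTV-PAX8PPARg, a transgene for a fusion of PAX8 and the nuclear receptor PPARg under a viral promoter that is active in mammary epithelium. No age in weeks was stated. In each genotype the pellets, which released their content over 60 days and were implanted again after 60 days, held placebo or 2.5 mg RU486, a drug that blocks progesterone and glucocorticoid receptors. With 1 array per group there is no replicate check and no test for any difference below, and it is this single array that bounds the precision of the values. The extraction protocol speaks of mammary gland tissue, and does not say how much tissue beside the tumour a pool held.

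Signals are the deposited ones, on a linear scale in arbitrary units, and are comparable between arrays for 1 gene but not between genes. Differences were taken between values of log2(signal + 16) after each array was centred on its median, which understates the change of dim genes. A signal is called within background where it was no brighter than the highest of 27 probe sets for bacterial transcripts. That limit was 9.6 for WT placebo, 18.5 for WT RU486, 8.3 for PAX8PPARg placebo and 35.3 for PAX8PPARg RU486. Where 4 signals of a gene stand in a row below, WT comes first and placebo precedes RU486 in each genotype. Hybridisation spike-in controls were brighter on the RU486 arrays, at a median of 1.59 and 2.43 times the WT placebo array in WT and PAX8PPARg, and 3' to 5' ratios of Gapdh ran from 2.51 to 3.33. Where the dimmer array was within background, a fold is given as "at least", with the dim signal raised to that array's limit. Of the 43 genes, 17 were above background on all 4 arrays, 19 on some of them, and 7 (Sprr2i, Sprr2j-ps, Sprr3, Lce1d, Lce1g, Lce1l and Lce3a) on none. For 9 genes the probe set carries a suffix for probes that may match several transcripts or near-identical copies, among them Sprr2h, Lce1a1, Lce3c, Tgm2, Dsg2 and Jup.

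With RU486 most of the genes were dimmer in WT and brighter in PAX8PPARg. In WT tumours 26 of 43 were at least 2-fold lower under RU486, against 8.88% of all genes, and 0 were at least 2-fold higher, against 7.46%, the median over the 43 being -1.31 log2 against 0.01 over all genes. In PAX8PPARg tumours 32 of 43 were at least 2-fold higher under RU486, against 10.6% of all genes, and 2 (Dsg2, and Sprr2f with a RU486 signal within background) were at least 2-fold lower, against 7.08%, with a median of 1.65 against 0.13. A total of 22 genes were at least 2-fold lower in WT and at least 2-fold higher in PAX8PPARg, as were 2.03% of all genes. With dim signals set to their limit and the bright signal required to exceed it, 20 genes were at least 2-fold lower in WT (7.98% of all genes) and 0 higher (6.71%). By the same rule 27 were at least 2-fold higher in PAX8PPARg (7.97% of all genes) and 1, Dsg2, was lower (5.67%), and 16 were lower in WT and higher in PAX8PPARg (1.72%). At 8-fold, 9 were lower in WT (1.39% of all genes) and 13 higher in PAX8PPARg (0.557% of all genes). In bulk tumour RNA, fewer cells of a type and less RNA per cell cannot be told apart.

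**Figure D1:**
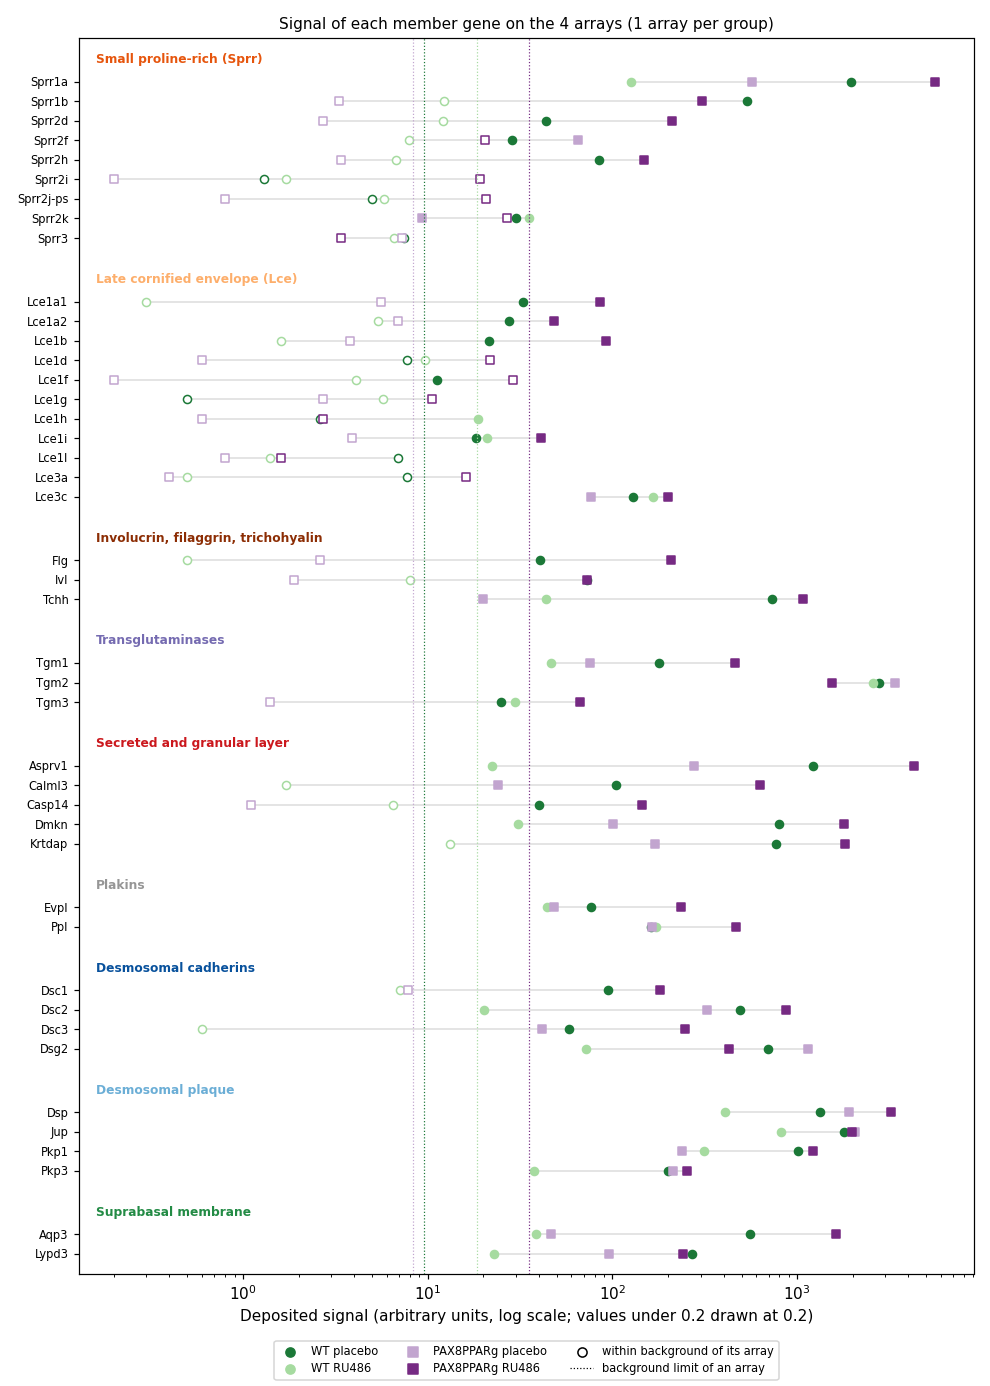
Deposited signal of each of the 43 genes on the 4 arrays, on a log axis, with genes in rows grouped by role, 1 point per array, open symbols for signals within background and dotted lines at each array's background limit. The PAX8PPARg RU486 array (dark squares) is the brightest for 32 genes (29.6% of all genes), and the WT RU486 array (pale circles) is the dimmest for 21 (32.7% of all genes).

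**Figure D2:**
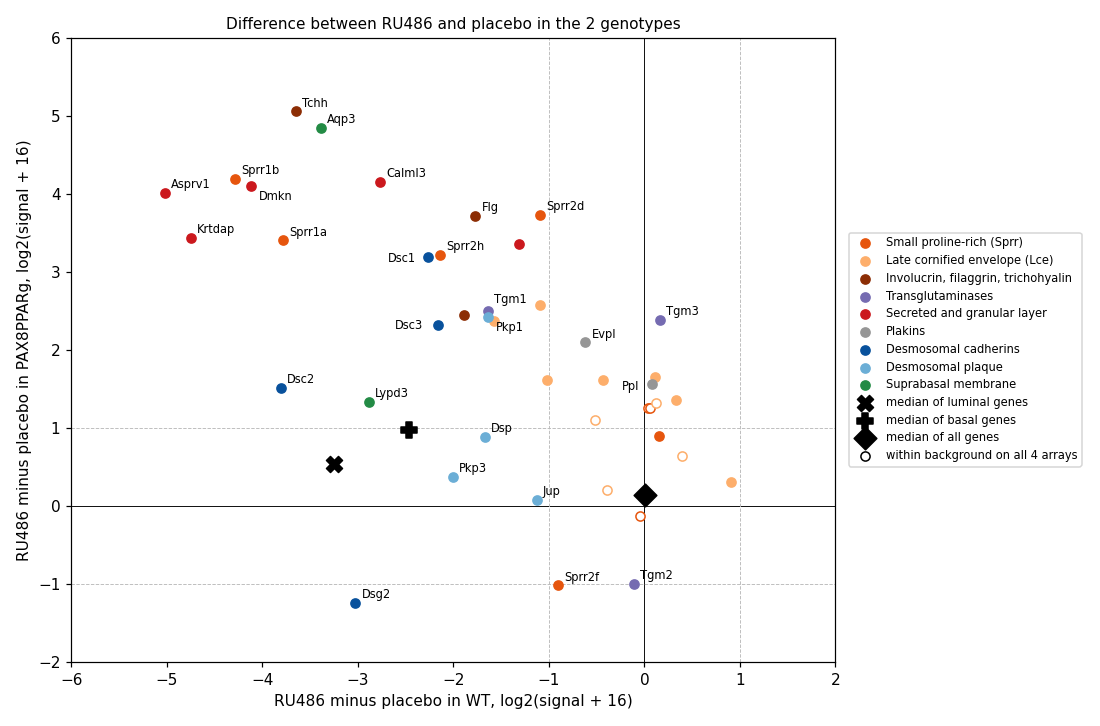
Difference between RU486 and placebo in WT (x axis) against the same in PAX8PPARg (y axis), both in log2(signal + 16), with 1 point per gene coloured by role, black symbols for the medians of luminal, basal and all genes, and dashed lines at 2-fold. Most genes lie in the upper left, lower under RU486 in WT and higher under RU486 in PAX8PPARg, while Dsg2 lies in the lower left.

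The small proline-rich proteins, short cross-linked precursors that set how flexible the envelope is, divided into genes with wide swings and genes near background. Sprr1a, a precursor switched on in stressed and differentiating squamous cells, read 1943, 126.5, 566.5 and 5597. It was thus lower with RU486 in WT (-3.78) and higher with RU486 in PAX8PPARg (3.40), and all 4 signals lay well over their limits. Its neighbour Sprr1b read 534.3, 12.2, 3.3 and 306.4. The WT RU486 and PAX8PPARg placebo signals were within background, and the other arrays were at least 15.9-fold and at least 14.6-fold brighter than their partners in the same genotype.

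Sprr2d and Sprr2h, members of the multi-copy Sprr2 family, were above background on the WT placebo and PAX8PPARg RU486 arrays only. Sprr2d read 43.9, 12.1, 2.7 and 210.3, at least 1.7-fold lower with RU486 in WT and at least 10.2-fold higher in PAX8PPARg. Sprr2h read 84.1, 6.7, 3.4 and 149.0.

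Sprr2f stood apart from these. Known in mice as an estrogen-responsive gene of the uterine epithelium, it read 28.7, 7.9, 65.1 and 20.5, so it was brighter under placebo than under RU486 in both genotypes. Both RU486 signals were within background, and the bounds were at least 1.3-fold in WT and at least 1.4-fold in PAX8PPARg. Sprr2k read 30.2, 35.4, 9.3 and 26.9, the last within background, so that no fold is given for PAX8PPARg. Sprr3, a small proline-rich protein of oral and oesophageal epithelium, was within background on all arrays at 3.4 to 7.4.

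Sequences upstream of 5 genes are shown because a pair of motifs was common in promoters of the small proline-rich genes and Krtdap, and Asprv1 is set beside them without either. RefSeq promoters of build GRCm38.p6, from 250 bases before to 50 after the start, were found for 31 of the 43 genes, as 34 promoters (none for Sprr2j-ps, Lce1f, Tgm2, Calml3, Evpl, Ppl, Dsc1, Dsc2, Dsc3, Dsg2, Pkp1 and Pkp3). The 250 bases before the start follow, 5′ to 3′ on the gene's strand, with capitals for the AP-1 motif TGANTCA and the TATA motif TATAAA on either strand; these 2 motifs share no base in the stretches shown. The stretches are chr3:92485882-92486131 on the minus strand for Sprr1a, chr3:92438780-92439029 on the minus strand for Sprr1b, chr7:30787655-30787904 on the plus strand for Krtdap, chr3:92364937-92365186 on the plus strand for Sprr2f and chr6:86627924-86628173 on the plus strand for Asprv1.
Sprr1a: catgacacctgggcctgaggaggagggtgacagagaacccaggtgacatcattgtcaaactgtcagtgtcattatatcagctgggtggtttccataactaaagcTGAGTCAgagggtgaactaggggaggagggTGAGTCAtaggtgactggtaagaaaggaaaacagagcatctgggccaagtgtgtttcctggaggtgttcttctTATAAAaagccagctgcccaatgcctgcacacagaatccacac
Sprr1b: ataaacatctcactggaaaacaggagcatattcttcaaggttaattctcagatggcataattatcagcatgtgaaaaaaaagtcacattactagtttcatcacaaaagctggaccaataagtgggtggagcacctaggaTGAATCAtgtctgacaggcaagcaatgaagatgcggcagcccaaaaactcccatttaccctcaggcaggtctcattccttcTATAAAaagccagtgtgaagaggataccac
Krtdap: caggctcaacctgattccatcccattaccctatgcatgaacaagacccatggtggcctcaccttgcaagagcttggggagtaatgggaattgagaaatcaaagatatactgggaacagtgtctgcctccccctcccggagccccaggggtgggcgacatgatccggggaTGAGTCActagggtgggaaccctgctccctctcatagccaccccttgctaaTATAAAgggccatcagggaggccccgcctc
Sprr2f: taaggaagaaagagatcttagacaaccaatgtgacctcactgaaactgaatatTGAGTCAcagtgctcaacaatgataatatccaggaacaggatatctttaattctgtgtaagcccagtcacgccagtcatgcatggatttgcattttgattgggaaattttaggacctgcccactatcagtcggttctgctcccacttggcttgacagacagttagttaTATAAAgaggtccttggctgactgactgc
Asprv1: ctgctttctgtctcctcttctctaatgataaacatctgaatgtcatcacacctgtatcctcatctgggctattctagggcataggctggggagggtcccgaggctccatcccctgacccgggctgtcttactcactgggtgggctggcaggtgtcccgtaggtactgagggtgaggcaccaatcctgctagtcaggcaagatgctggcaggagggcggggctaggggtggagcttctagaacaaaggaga

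The letters of the AP-1 site, which Fos and Jun proteins can bind, occurred in 7 of 8 promoters of small proline-rich genes, in 13 of 34 promoters of the whole set and in 7.81% of 32851 promoters in the RefSeq table. The TATA letters occurred in 8 of 8, in 14 of 34 and in 13.6%. Of 10 late cornified envelope promoters, 0 held the AP-1 letters and 1 held the TATA letters. Paralogs share sequence, so these promoters are not independent of each other. Dmkn is counted by several promoters, each with the AP-1 letters, and its windows chr7:30763506-30763805 and chr7:30763508-30763807 nearly coincide. In Sprr1a the AP-1 letters began 146 and 116 bases before the start, in Sprr1b 111, in Krtdap 81 and in Sprr2f 197. Sprr2f, dimmer with RU486 in both genotypes, held both motifs, and Asprv1, with the largest genotype difference of the RU486 effect, held neither.

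The other motifs were searched on both strands too. CACCC, a core of sites for KLF factors, was in 20 of 34 promoters and in 57.5% of all. AGGTCA, the half-site of many nuclear receptors including PPARg, was in 5 of 34 and in 16.3% of all. GGAAGT, a core for ETS factors, was in 10 of 34 and in 23.8% of all. The palindromic element of progesterone and glucocorticoid receptors was in 0 of 34 and in 0.475% of all.

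Of the late cornified envelope genes, which are added last to the shell, all but Lce3c were within background on at least 1 array. Lce1b read 21.5, 1.6, 3.8 and 91.9, and the last was at least 4.9-fold over its placebo partner. Lce1a1 read 32.7, 0.3, 5.6 and 85.7, and Lce1a2 read 27.4, 5.4, 6.9 and 48.1. These 3 genes were above background on the WT placebo and PAX8PPARg RU486 arrays only, and their WT differences came to bounds of only 1.1-fold to 1.4-fold, since the brighter signal was itself close to the limit of the other array.

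Lce3c read 128.9, 165.9, 76.5 and 200.9, above background on all arrays, with 0.33 in WT and 1.36 in PAX8PPARg. Lce1i read 18.3, 21.0, 3.9 and 41.1, near equal in WT and at least 2.6-fold higher with RU486 in PAX8PPARg. Lce1h and Lce1f exceeded the limit on 1 array each, Lce1h at 18.8 on the WT RU486 and Lce1f at 11.2 on the WT placebo array. Over all 11 genes the median was -0.40 in WT and 1.36 in PAX8PPARg.

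Involucrin, filaggrin and trichohyalin genes were all brighter on the WT placebo and PAX8PPARg RU486 arrays than on the other arrays. Tchh, which hardens the inner root sheath of hair and filiform papillae of the tongue, read 731.3, 43.6, 19.9 and 1073 and was above its limit on every array. It was lower with RU486 in WT (-3.65) and higher in PAX8PPARg (5.06), the largest difference of the set in that genotype. Flg, the filaggrin gene, read 40.3, 0.5, 2.6 and 206.9, at least 1.6-fold lower in WT and at least 10.1-fold higher in PAX8PPARg. Ivl, the involucrin gene, read 73.2, 8.0, 1.9 and 72.7, nearly equal on the outer arrays and within background on the others.

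The transglutaminases split by type. Tgm1, the membrane-bound enzyme that cross-links the envelope in keratinocytes, read 179.0, 46.5, 75.9 and 458.7, lower with RU486 in WT (-1.64) and higher in PAX8PPARg (2.50). Tgm3, an enzyme of epidermis and hair, read 24.9, 29.7, 1.4 and 66.9, so the WT arrays differed little (0.16) and PAX8PPARg was at least 3.7-fold higher under RU486. Tgm2, the widely expressed tissue transglutaminase, read 2781, 2568, 3388 and 1538, near equal in WT (-0.11) and just under 2-fold lower with RU486 in PAX8PPARg, opposite to Tgm1 and Tgm3. Over the 5 Tgm2 probe sets above background the PAX8PPARg difference ran from -1.52 to -0.94 and the WT difference from -0.15 to 0.01.

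Genes of the granular layer and of secreted epidermal proteins had the widest swings of any role, with medians of -4.12 in WT and 4.01 in PAX8PPARg. Asprv1, a protease that processes filaggrin, read 1221, 22.2, 275.7 and 4267, and the PAX8PPARg RU486 array was 107.7-fold brighter than the WT RU486 array. Dmkn, the gene of the secreted protein dermokine, read 800.5, 30.9, 100.4 and 1802. Krtdap, which encodes a small secreted protein of differentiating keratinocytes, read 770.5, 13.2, 168.9 and 1813, at least 22.8-fold lower with RU486 in WT and 10.9-fold higher in PAX8PPARg.

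Calml3, a calmodulin-like protein of stratified epithelium, read 104.5, 1.7, 23.9 and 632.7, at least 3.5-fold lower in WT and 17.8-fold higher in PAX8PPARg. Casp14, a caspase of cornifying cells that takes part in filaggrin breakdown, read 39.9, 6.5, 1.1 and 143.6, at least 1.6-fold lower in WT and at least 7.2-fold higher in PAX8PPARg. All 5 genes of this role were brightest on the PAX8PPARg RU486 array.

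The plakins that form the scaffold of the envelope differed more with RU486 in PAX8PPARg than in WT. Ppl, the periplakin gene, read 161.8, 172.1, 162.9 and 466.4, level on 3 arrays and 3.0-fold higher on the fourth than on its placebo partner. Evpl, the envoplakin gene, read 76.4, 44.2, 48.2 and 234.4, with differences of -0.62 in WT and 2.10 in PAX8PPARg.

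Aqp3, a channel for water and glycerol in basal and lower layers of stratified epithelium, read 558.0, 38.7, 46.7 and 1628, a difference of -3.39 in WT and 4.85 in PAX8PPARg. Its 3 probe sets gave -3.39 to -1.06 in WT and 2.28 to 4.85 in PAX8PPARg, and the dimmest of them was within background on 2 arrays. Lypd3, a membrane-anchored protein of suprabasal keratinocytes, read 269.4, 22.7, 96.2 and 242.0, with -2.88 in WT and 1.33 in PAX8PPARg, and unlike Aqp3 it was no brighter in the PAX8PPARg RU486 pool than in the WT placebo pool.

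Desmosomal genes were lower with RU486 in WT as a whole, while in PAX8PPARg their members parted. In WT all 8 were at least 2-fold lower (median -2.09). In PAX8PPARg 4 were at least 2-fold higher, 3 were within 2-fold and 1 was at least 2-fold lower (median 1.20). The other 35 genes had medians of -1.02 and 2.10.

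Among the cadherins, Dsc1, the desmocollin of the upper epidermal layers, read 95.1, 7.1, 7.8 and 181.7, at least 3.2-fold lower with RU486 in WT and at least 8.9-fold higher in PAX8PPARg. Dsc3, the desmocollin of the basal layers of stratified epithelia, read 58.4, 0.6, 41.7 and 246.9, with 2.32 in PAX8PPARg. Dsc2, found in all epithelia with desmosomes, read 490.4, 20.1, 325.6 and 871.3, with -3.81 in WT and 1.51 in PAX8PPARg. These desmocollins shared the low WT RU486 signal but differed in the PAX8PPARg placebo pool, where Dsc1 alone was within background.

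Dsg2, the desmoglein of simple epithelia and the only desmoglein measured by a one-symbol probe set here, read 698.3, 71.7, 1139 and 428.7. It was lower with RU486 in both genotypes, by -3.03 in WT and -1.24 in PAX8PPARg, so its PAX8PPARg difference was opposite to those of the desmocollins. Its 6 probe sets had the same sign in each genotype, from -3.57 to -2.77 in WT and from -1.24 to -0.65 in PAX8PPARg. The probe set used gave the largest PAX8PPARg difference, and most of the others were under 2-fold there.

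In the plaque, Pkp1, the plakophilin of stratified epithelia, read 1005, 312.9, 237.5 and 1217, with -1.63 in WT and 2.42 in PAX8PPARg. Pkp3, a plakophilin of most epithelia, read 200.1, 37.7, 212.6 and 253.2, with -2.01 and 0.37. Dsp, the desmoplakin gene, read 1324, 404.8, 1911 and 3226, with -1.67 and 0.88, and Jup, the gene of plakoglobin, which also sits in adherens junctions, read 1793, 812.3, 2049 and 1975, with -1.13 and 0.08. Dsp, Pkp3 and Jup thus had a low signal on the WT RU486 array and differed by less than 2-fold with RU486 in PAX8PPARg.

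**Figure D3:**
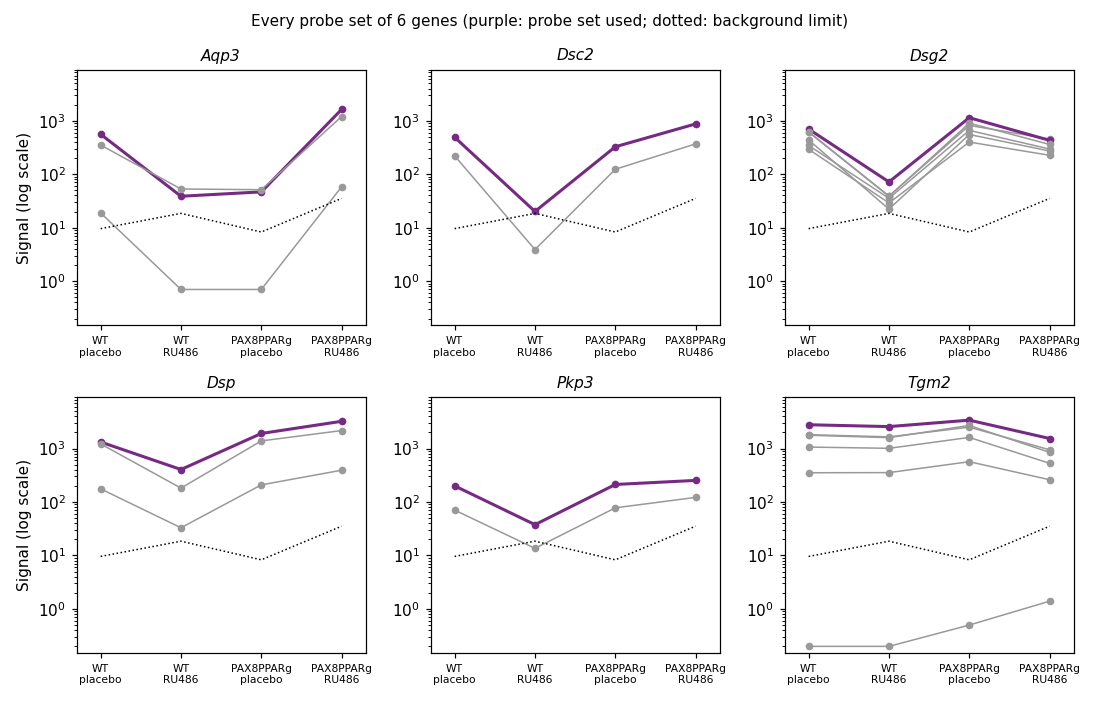
Signals of every probe set of Aqp3, Dsc2, Dsg2, Dsp, Pkp3 and Tgm2 on the 4 arrays, on a log axis, 1 line per probe set with the one used in purple and the background limit dotted. The probe sets of a gene run in parallel where they are above the limit, and for Dsg2 and Tgm2 the PAX8PPARg placebo array is the highest, apart from a Tgm2 probe set within background throughout.

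The genotypes were then compared under each treatment, with arrays that the differences above already used, so these values are not separate evidence. Under placebo 22 of 43 genes were at least 2-fold lower in PAX8PPARg than in WT (5.49% of all genes) and 0 at least 2-fold higher (4.34%), the median being -1.06 against -0.15 over all genes. Sprr1b (at least 25.8-fold), Tchh (23.8-fold), Aqp3 (10.4-fold) and Dmkn (8.0-fold) were among the lower ones, whereas Dsp (0.33), Jup (0.00), Pkp3 (-0.11) and Dsg2 (0.50) differed by less than 2-fold. Under RU486 29 of 43 were at least 2-fold higher in PAX8PPARg (10.9% of all genes) and 0 at least 2-fold lower (10.2%), the median being 2.27 against 0.01.

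The difference of the RU486 effect, PAX8PPARg minus WT, was at least 2-fold positive for 36 of 43 genes (15.6% of all genes) and at least 2-fold negative for 0 (12.2%). Among the 36 members above background on at least 1 array, 32 were at least 2-fold positive, as were 1771 of 11234 such genes. With each array floored at its own limit, 31 of 43 were, as were 1665 of 12393 genes. Among the 17 genes above background on all arrays Asprv1 had the largest value, 9.03, followed by Tchh (8.70), Aqp3 (8.24), Dmkn (8.22) and Sprr1a (7.18), and Tgm2 (-0.88) was the only negative one. For genes with a signal within background, such as Sprr1b, the value also depends on the pseudocount and is not ranked here. The PAX8PPARg RU486 array was the brightest of the 4 for 32 of 43 genes, against 29.6% of all genes, and 5 of the 32 were within background on every array. The WT RU486 array was the dimmest for 21, against 32.7% of all genes, and the PAX8PPARg placebo array for 18, against 22%. Many of these dimmest signals were within background.

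Centring mattered for the count of all genes. In PAX8PPARg 1316 genes were at least 2-fold higher and 877 lower with RU486 after centring, 1028 and 1080 without it and 865 and 1022 after quantile normalization, and the median of all genes moved by -0.13 and -0.11. Between genotypes under placebo the counts were 538 higher and 680 lower after centring and 744 and 482 without it, with a shift of 0.19. Of the 43 genes, 31 were at least 2-fold higher with RU486 in PAX8PPARg without centring and 28 after quantile normalization.

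Epithelial genes differed between the same arrays. Of 17 luminal genes, 15 were at least 2-fold lower with RU486 in WT (median -3.25), and in PAX8PPARg 2 were at least 2-fold higher and 1 lower (median 0.53). Their summed signal was 46158, 7858, 41254 and 48655. Of 16 basal and myoepithelial genes, 14 were at least 2-fold lower in WT (median -2.46), and 8 were higher and 4 lower in PAX8PPARg (median 0.98). The 8 included Krt14 (2.57), Krt5 (2.26) and Krt15 (1.91), and the 4 were Myh11 (-2.45), Cnn1 (-1.71), Oxtr (-1.55) and Mylk (-1.25). Trp63, the transcription factor of basal and stratified epithelium, read 1186, 92.0, 1906 and 1824, with -3.48 in WT and 0.07 in PAX8PPARg. Beside these, the desmosomal medians were -2.09 in WT and 1.20 in PAX8PPARg, and those of the granular-layer and secreted genes were -4.12 and 4.01. The part of epithelial content in these differences was not tested.

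Macrophage genes were brighter under RU486 in WT, where 13 of 14 were at least 2-fold higher with RU486 (median 1.75) and 0 in PAX8PPARg (median -0.04). Their summed signal was 73156 on the WT RU486 array and 21639 to 23895 on the others, with no gene of the list within background on any array, and its part in the results was not tested. The adipocyte list of 12 had 5 genes dimmer by 2-fold or more under RU486 in WT (median -0.93) and 12 in PAX8PPARg (median -3.53), with sums of 10998, 4272, 29447 and 4313, and 3 of them within background on the PAX8PPARg RU486 array only. Of 11 neutrophil genes, 4 were at least 2-fold lower and 1 higher in WT (median -0.68), and 9 were higher in PAX8PPARg (median 2.14), with sums of 10840, 4336, 1592 and 9066. Ltf (4880, 286.1, 604.3 and 2937) and S100a9 (2366, 355.7, 394.1 and 2517) were the brightest of them on the WT placebo and PAX8PPARg RU486 arrays. Cxcr2 read 84.6, 27.3, 68.7 and 65.7, with -1.22 in WT and 0.08 in PAX8PPARg, and Ngp and Camp were above background on 1 array each. Of 12 fibroblast genes, 1 was higher and 1 lower in each genotype (medians 0.05 and 0.13), with sums of 66807, 89368, 49749 and 73292. The part of these cells in the results was not tested either.

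**Figure D4:**
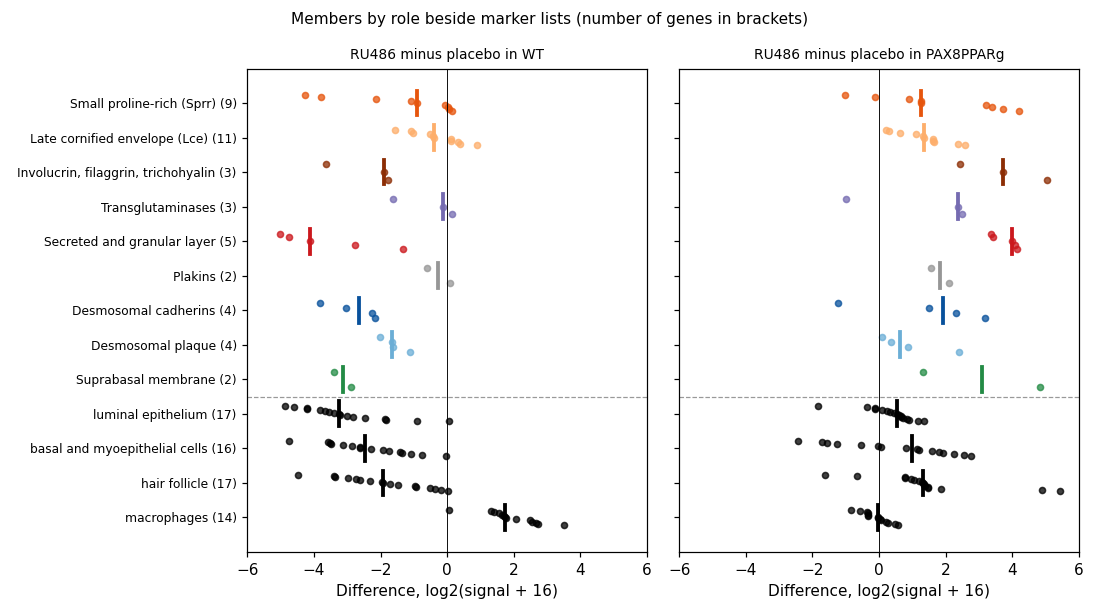
Difference between RU486 and placebo in WT (left) and PAX8PPARg (right), in log2(signal + 16), for the genes of each role and, under the dashed line, of 4 marker lists, with 1 point per gene and a bar at the median. The medians of the roles lie left of 0 in WT and right of 0 in PAX8PPARg, while luminal genes are far left in WT (-3.25) and near 0 in PAX8PPARg (0.53).

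Other genes of cornification, from a list that shares no gene with the 43, gave similar counts. Of 31 measured, 22 were at least 2-fold lower with RU486 in WT (median -2.43) and 0 higher, and in PAX8PPARg 24 were at least 2-fold higher (median 2.14) and 0 lower. The list named the stress keratins Krt6a (1308, 9.7, 48.6 and 1890) and Krt16 (778.3, 3.6, 9.7 and 587.5), the epidermal keratin Krt1 (352.3, 1.3, 10.3 and 374.1) and the desquamation protease gene Klk7 (890.8, 18.8, 37.5 and 523.8). All 4 were bright on the WT placebo and PAX8PPARg RU486 arrays and dim on the others, which did not hold for every gene of the list. The remaining genes of the 6 with the largest genotype difference were Klk6 (2861, 31.1, 24.1 and 430.2) and S100a14 (1453, 1.8, 402.2 and 2605). S100a14 was well above background on the PAX8PPARg placebo array.

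Regulators of keratinocyte differentiation had smaller medians. Of 34, 12 were at least 2-fold lower and 3 higher with RU486 in WT (median -0.62), and 7 were higher and 4 lower in PAX8PPARg (median 0.34). Grhl1, a grainyhead factor that controls desmosomal cadherin genes, read 1619, 59.9, 790.8 and 823.2, with -4.43 and 0.19. Klf5, a factor of basal keratinocytes, read 393.2, 153.8, 225.5 and 1247, with -1.27 and 2.52. Among 23 genes of other junctions, 13 were at least 2-fold lower and 2 higher in WT (median -1.39), and 6 were higher and 0 lower in PAX8PPARg (median 0.63). The skin connexin gene Gjb6 read 990.3, 1.0, 47.3 and 103.1, and Cdh1, the E-cadherin gene, read 2403, 156.6, 1934 and 3177. Some cornification, regulator and junction genes also stand in the luminal, basal or hair follicle marker lists, so counts of these lists are not of separate genes.

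Markers of skin, its appendages and the oral epithelium were read beside these genes. Hair follicle genes, a list without Tchh, were at least 2-fold lower with RU486 in WT for 11 of 17 (median -1.93) and at least 2-fold higher in PAX8PPARg for 12 of 17 (median 1.32). Their summed signal was 3052, 298, 621 and 2470, and 2, 10, 5 and 6 of the 17 were within background. The inner root sheath keratin gene Krt27 read 1300, 43.1, 8.8 and 656.1, and Krt25 read 267.7, 11.7, 3.0 and 732.1. These had the largest genotype differences of the RU486 effect in the list. Lef1 and Msx2 went the other way in PAX8PPARg, at -1.63 and -0.67. Both were brightest on the PAX8PPARg placebo array, at 44.2 and 171.8, and Lef1 was within background on the other arrays. Lef1 was the only gene of the list at least 2-fold lower with RU486 in PAX8PPARg. Of 10 epidermal markers outside the 43, of which 9 are also in the list of other cornification genes, 6 were at least 2-fold lower in WT (median -1.54) and 8 higher in PAX8PPARg, and they summed to 3023, 229, 615 and 2562, with 2, 8, 3 and 4 of 10 within background. Of 5 tongue and oral genes, 1 was at least 2-fold lower in WT (median 0.14) and 4 higher in PAX8PPARg (median 1.19), with sums of 1088, 105, 261 and 926. These sums follow mainly Mal, at 1020, 24.1, 236.7 and 717.6. The keratin gene Krt13 was within background on every array, at 5.6 or less. Of 5 sebaceous gland genes, 2 were at least 2-fold lower in WT and 1 higher in PAX8PPARg. Among them Krt79 read 494.2, 27.6, 101.6 and 3656, and Scd3 read 42.3, 11.4, 32.9 and 59.9, with -1.09 in WT and 0.77 in PAX8PPARg. Mc5r, Elovl3 and Mogat2 were at 17.4 or less on every array. Whether these signals came from tumour cells, from skin or from hair follicles beside the tumour was not tested.

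By position, 23 of the 43 genes lay on chromosome 3, between 92339140 and 93449077 of GRCm38.p6 (1110 kb), the epidermal differentiation complex, and 20 lay elsewhere. The difference of the RU486 effect was at least 2-fold positive for 17 of 23 genes of the complex and for 19 of 20 elsewhere (15.6% of all genes). The medians were 1.63 and 4.18. The 17 include Sprr2i, Sprr2j-ps, Lce1d and Lce3a, which were within background on all 4 arrays. Of the 23, 11 were late cornified envelope genes, 7 of which were above background on at least 1 array. Genes elsewhere included Asprv1 on chromosome 6, Krtdap and Dmkn on chromosome 7 and Aqp3 on chromosome 4.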

How the data were processed

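The values were intensities on a linear scale, taken as the authors deposited them for 4 Affymetrix arrays of biotin-labelled cRNA, each from pooled RNA of 5 mice per the labels' protocols. For the software and algorithm behind these signals, the labels name nothing. Every array had a 2% trimmed mean between 500.1 and 500.2. Of 22690 probe sets, 64 were controls, 20380 had 1 gene symbol, 691 several and 1555 none. Each gene took its brightest probe set, on the scale log2(signal + 16), after which arrays were median-centred. Chromosomes and promoters came from RefSeq, GRCm38.p6, and all 43 genes matched by gene ID. With 1 array per group, genes were counted by fold and no test was run. The genes, lists, motifs and alternatives were chosen with earlier results of these data known. All members are named or counted. From the context lists, only genes among the 6 with the largest genotype difference of the RU486 effect are named, apart from Rptn and Hrnr, given as neighbours of members. Some genes of the marker lists were picked after their values were seen. They are Krt25, Krt27, Lef1, Msx2, Krt79, Scd3, Mc5r, Elovl3, Mogat2, Ltf, S100a9, Cxcr2, Ngp and Camp. The same holds for Mal, Krt13, Krt5, Krt14, Krt15, Myh11, Cnn1, Oxtr and Mylk. Only the 2-fold calls were tested on simulated data, and only for bright genes. Background limits, bounds and the motif search were not part of that test. Python 3.11.15, numpy 2.4.6 and pandas 2.3.3 were used.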

Additional observations from a re-analysis of the deposited data

Results flagged for a closer look

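Opposite differences with RU486 in the 2 genotypes, at least 2-fold each way and with 1 array per group, were found for 22 genes, and the difference between genotypes was not tested. Its size, PAX8PPARg minus WT on the log2 scale, was 9.03 for Asprv1, 8.70 for Tchh, 8.24 for Aqp3, 8.22 for Dmkn, 7.18 for Sprr1a, 5.32 for Dsc2, 4.22 for Lypd3, 4.14 for Tgm1 and 4.05 for Pkp1, all above background on every array. The other values rest on at least 1 signal within background and depend on the pseudocount, so their order carries no information. With 1 such signal they were 8.19 for Krtdap, 6.92 for Calml3 and 4.48 for Dsc3. With 2 such signals they were 8.48 for Sprr1b, 5.49 for Flg, 5.45 for Dsc1, 5.36 for Sprr2h, 4.82 for Sprr2d, 4.67 for Casp14, 4.34 for Ivl, 3.95 for Lce1a1, 3.67 for Lce1b and 2.64 for Lce1a2. With dim signals held at their background limit, 16 genes were at least 2-fold apart in these directions, as were 1.72% of all genes.

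A pair of probe sets outside the comparisons, each annotated with several near-identical small proline-rich genes and therefore left unnamed, carried signal above the bacterial controls, by little on the WT RU486 array, where that limit was 18.5. The first read 302.9, 25.0, 322.6 and 323.9, with WT first and placebo before RU486 in each genotype, and the second 153.0, 19.1, 251.0 and 213.0. Both were lower with RU486 in WT (-2.96 and -2.27), but in PAX8PPARg they differed by 0.14 and -0.09, unlike Sprr1a, Sprr2d and Sprr2h.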

How the results depend on the processing

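Of 120 recomputed counts and medians over the genes, 87 stayed close to the reported value. Close meant within 1.5 times for a count, and for a log2 median a shift of less than 1.5-fold on the linear scale. The direction of each median with RU486 was kept under all 8 alternatives. With only the 13 genes at or above the median level of all genes, 11 were lower with RU486 in WT (median -3.39), 9 higher and 1 lower in PAX8PPARg (median 2.42), 7 lower in PAX8PPARg under placebo (median -1.94), 12 higher under RU486 (median 4.13) and 12 positive in the difference of effects (median 5.32). Of the 6197 genes at that level, 583 were lower with RU486 in WT, and 358 were higher and 352 lower in PAX8PPARg. Under placebo 308 were lower in PAX8PPARg, under RU486 513 were higher, and 783 were positive in the difference of effects. Fewer genes were tested there, and the level was the mean of the same 4 arrays. Genes could pass through the arrays where they were bright, as with Tchh (731.3, 43.6, 19.9 and 1073). The larger medians are thus no separate support. With every signal floored at the highest background of any array, 17 were lower in WT (median -0.22), against 880 of 12393 genes. With RU486 in PAX8PPARg 1 was lower, against 703 of all genes, and 13 were lower under placebo between genotypes (median -0.19), against 502. At that floor the medians between genotypes under RU486 and for the difference of effects were 1.58 and 1.78. There the called differences of Lce1a1, Lce1a2 and Lce1b in WT turned to 0.00081 and that of Lce1f under RU486 to -0.058, because both of their signals lay under the floor. With each array floored at its own limit, the WT median was -0.71 and 1 gene was lower in PAX8PPARg, against 703 of all genes. A pseudocount of 4 gave 2 genes higher in WT (1517 of all genes), 1 lower between genotypes under RU486 (1637) and 1 negative difference of effects (1873). The medians with it were 2.60 in PAX8PPARg, -1.65 between genotypes under placebo and 4.14 for the difference of effects. A pseudocount of 64 gave medians of -0.59 in WT, 1.42 between genotypes under RU486 and 1.80 for the difference of effects. It gave 13 genes lower under placebo, against 382 of all genes. Averaging probe sets left 1 gene lower in PAX8PPARg (754 of all genes), Sprr2f with a RU486 signal within background, since Dsg2 then fell short of 2-fold. Leaving out centring gave 1 negative difference of effects (1765 of all genes), and so did quantile normalization (1703). Signals close to background limit the values of most late cornified envelope genes. No paired analysis was possible because each group has 1 array.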

Other observations

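Genes that lie between the members on chromosome 3 but were not chosen by name gave mixed values. Of 5 measured, Rptn, the gene of the filaggrin-type protein repetin, read 158.9, 8.0, 8.6 and 552.3, with WT first and placebo before RU486 in each genotype, and Crct1 read 449.0, 35.7, 67.4 and 505.1. Hrnr, the hornerin gene, read 68.7, 12.5, 2.4 and 21.9 and exceeded background on the WT placebo array alone. Smcp, a gene of sperm mitochondria, and 2310050C09Rik were within background on all 4 arrays, at 18.2 or less.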
